A study of Homo sapiens with 16 samples.

Results

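Notch receptors, the DNA-binding factor RBPJ and genes known as their targets were followed across 8 human B-cell lines that the labels call mantle cell lymphoma lines. The genes were NOTCH1, NOTCH2, RBPJ, HES1, HES4, DTX1, NRARP and SEMA7A. They were chosen by name, and a probe set was taken where the platform annotation gives it exactly 1 of these symbols. That found all 8 genes among the 19775 with a probe set of their own, on 17 of 54675 probe sets. The probe set with the highest mean intensity stood for each gene. A filter on low signal left 7 of the 8 genes among the 12305 tested, and HES4 did not pass it.

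Cells were exposed for 20 hours to 5 uM AFN700, which blocks the kinase IKKbeta, or to 0.025% DMSO, its solvent. IKKbeta releases the classical NF-kB factors from their inhibitor. By the labels, REC-1 and SP49 are sensitive to ibrutinib, which inhibits the kinase BTK, and to an agent abbreviated "stn". The 6 lines labelled insensitive are JVM-13, JVM-2, Maver-1, Z-138, GRANTA-519 and HBL-2. The labels name no engineered allele. The culture medium was DMEM for GRANTA-519 and RPMI for all others, so the medium and that line cannot be told apart. Each line had 1 array per treatment, 16 in all. For JVM-13 the title of the treated array says AFN700 and the treatment field AFN701; the array was used as AFN700. A single line's value has no error of its own, and the p-values for AFN700, for the sensitivity classes and for REC-1 measure the spread between lines.

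Notch proteins are receptors at the cell surface. When a ligand on a neighbouring cell binds, the protease ADAM10 and then the gamma-secretase complex cut the receptor, and its intracellular part enters the nucleus. There it joins RBPJ and a Mastermind-like coactivator and turns on targets such as the HES repressors. Lesions that shorten the C-terminal degradation region of NOTCH1 or NOTCH2 occur in mature B-cell lymphomas, and REC-1 is known for a NOTCH1 lesion. The files do not say which part of the transcript a probe set reads, so NOTCH1 signal here is no check of that lesion.

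RBPJ binds DNA at a core written TGGGAA, and the promoters of both HES genes are shown because they hold it. The windows run from 250 bases before to 50 after the start site, from RefSeq on GRCh38.p14, and capitals mark the core. In the HES1 window, chr3:194135898-194136197 on the plus strand, it stood at -84 and at -70 from the start site, with 8 letters between the copies. The HES4 window, chr1:1000048-1000347 on the minus strand, held 1 copy at -76.
HES1: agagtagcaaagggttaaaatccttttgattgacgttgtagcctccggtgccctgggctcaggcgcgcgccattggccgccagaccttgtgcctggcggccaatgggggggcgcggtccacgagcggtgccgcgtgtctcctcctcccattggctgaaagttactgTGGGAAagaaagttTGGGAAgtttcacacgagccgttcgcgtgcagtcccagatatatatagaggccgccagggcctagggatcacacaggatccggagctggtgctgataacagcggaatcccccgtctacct
HES4: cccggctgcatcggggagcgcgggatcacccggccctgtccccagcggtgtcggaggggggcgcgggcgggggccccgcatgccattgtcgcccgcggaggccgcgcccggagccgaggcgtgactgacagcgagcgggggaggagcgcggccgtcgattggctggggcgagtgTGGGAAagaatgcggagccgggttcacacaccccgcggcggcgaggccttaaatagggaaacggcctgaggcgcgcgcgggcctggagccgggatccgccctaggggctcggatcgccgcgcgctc
The letters TGGGAA or, on the other strand, TTCCCA were searched in the windows of the 7 members that the table holds. They also occurred in 1 of 5 RBPJ windows and in none of the windows of NOTCH1, NOTCH2, NRARP and SEMA7A. Of all 35116 windows of this length, 24% held at least 1 copy and 3.8% held 2 or more. A match describes letters and is not evidence of binding.

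The B-cell identity of the lines was checked first. MS4A1, which encodes CD20, ranged over 3177.8 to 5371.9 intensity units on the 16 arrays. Of 6 B-cell markers 5 were measured, and the others varied more: CD79A read 657 to 2321, PAX5 289 to 1385, CD79B 164 to 2034 and CD22 43.8 to 1539.5. CD22 was lowest in Z-138 and CD79B on the DMSO array of JVM-13. Both defining mantle cell markers were at background level in 1 line, JVM-13. CCND1 read 2.3 on the AFN700 array and 4.8 on the DMSO array of that line, and SOX11 read 0.3 and 1.4. In JVM-2, SOX11 was also at background level, at 0.6 with AFN700 and 0.1 with DMSO, and CCND1 read 79.1 and 78.7. On the DMSO array of JVM-13 the median log2 level over the tested genes was low. It was 7.248, against 7.815 to 8.022 on the other 15 arrays. Over all probe sets the median of that array was 3.907, against 3.678 on the AFN700 array of the line. Correlation between the DMSO and AFN700 arrays of JVM-13 was 0.9237, against 0.9638 to 0.99 in the other lines. The actin 3'/5' signal ratio, a sign of RNA or cDNA integrity, was highest in Maver-1, at 18.8 with AFN700 and 10.3 with DMSO. It differed most between treatments in HBL-2, at 16.7 with AFN700 and 1.90 with DMSO. On the 12 arrays of the other 6 lines it was at most 6.40, in SP49 with AFN700, against 2.73 in SP49 with DMSO.

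Among the receptors, NOTCH2 ranged more widely between lines than NOTCH1. With DMSO, NOTCH2 read 2325 in REC-1, 1965 in SP49, 1783 in HBL-2, 2401 in Maver-1, 2036 in Z-138, 22.6 in GRANTA-519, 166 in JVM-2 and 35.3 in JVM-13. Maver-1, REC-1, Z-138, SP49 and HBL-2 were high, and JVM-2, JVM-13 and GRANTA-519 were low. A signal under its array's 60th percentile was treated as not above background, and folds against it are lower bounds set at that percentile. GRANTA-519 was under it, so Maver-1, the highest line, lay at least 80.8-fold above it. The gaps between HBL-2 and JVM-2 and between JVM-2 and JVM-13 exceeded the SD of a difference between 2 arrays of this gene, while the 5 high lines did not differ from their neighbours beyond it. The other 3 NOTCH2 probe sets also put these 3 lines lowest. NOTCH2 has near-identical partial copies in the genome, so its probe sets may also read those. JVM-2 and JVM-13 are the lines with SOX11 at background level, while GRANTA-519 read 1813 for SOX11 with DMSO, and the part of this marker in the NOTCH2 split was not tested. In bulk RNA, fewer cells with a transcript and less of it per cell cannot be told apart. NOTCH1 read 108 in REC-1, 99.9 in SP49, 168 in HBL-2, 44.4 in Maver-1, 197 in Z-138, 234 in GRANTA-519, 87.4 in JVM-2 and 126 in JVM-13 with DMSO. GRANTA-519 was highest and Maver-1 lowest, with a 5.27-fold range, and of 7 gaps between neighbours only that between JVM-2 and Maver-1 exceeded the spread. A weaker NOTCH1 probe set read 6.6 to 17.0 on the DMSO arrays. Maver-1, the line with the highest actin ratio, was lowest for NOTCH1, HES1, NRARP and SEMA7A, and the part of that ratio in these levels was not tested.

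RBPJ, the factor through which all Notch receptors act on DNA, was similar in most lines. With DMSO it read 1191 in REC-1, 874 in SP49, 1415 in HBL-2, 1347 in Maver-1, 1659 in Z-138, 1579 in GRANTA-519, 1373 in JVM-2 and 3069.5 in JVM-13. JVM-13 was highest and SP49 lowest, a 3.51-fold range, and both stood beyond the spread from their neighbours. The next RBPJ probe set also put JVM-13 highest at 1573 and SP49 lowest at 341. With AFN700, JVM-13 read 1500.1 for RBPJ, within the range of the other lines, so its high place rests on the DMSO array. The weakest RBPJ probe set read 3.6 to 46.3 over the 16 arrays.

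HES1 and HES4 encode transcriptional repressors of the bHLH class. HES1 read 329 in REC-1, 184 in SP49, 78.8 in HBL-2, 12.5 in Maver-1, 43 in Z-138, 190.2 in GRANTA-519, 229 in JVM-2 and 395 in JVM-13 with DMSO. JVM-13, REC-1, JVM-2, GRANTA-519 and SP49 were above HBL-2, Z-138 and Maver-1, and JVM-13 lay at least 14.5-fold above Maver-1, which was not above background. JVM-13 was highest on the DMSO array only, and read 88.9 with AFN700. The second HES1 probe set also put HBL-2, Z-138 and Maver-1 lowest, at 7.4, 7.9 and 6.2, and it placed JVM-2 next at 14.9, while on the first probe set JVM-2 was above GRANTA-519 and SP49. The weakest HES1 probe set read 0.4 to 3.7 on all arrays. HES4 was not above background on any DMSO array, at 16.5 in REC-1, 7.5 in SP49, 6.2 in HBL-2, 3.6 in Maver-1, 4.6 in Z-138, 4.8 in GRANTA-519, 5.9 in JVM-2 and 2.5 in JVM-13 with DMSO. These values have no order, and no fold is given for them.

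DTX1 encodes a ubiquitin ligase known as a Notch target and modulator in B cells. With DMSO it read 1896 in REC-1, 1869 in SP49, 1192 in HBL-2, 974 in Maver-1, 943 in Z-138, 300.3 in GRANTA-519, 5.8 in JVM-2 and 6.1 in JVM-13. REC-1 and SP49 were highest, HBL-2, Z-138 and Maver-1 followed, GRANTA-519 was lower, and JVM-2 and JVM-13 were not above background. REC-1 lay at least 81.7-fold above JVM-2. NRARP encodes a small protein that Notch induces and that limits Notch complexes. It read 692 in REC-1, 1148 in SP49, 639.5 in HBL-2, 130.3 in Maver-1, 394 in Z-138, 989 in GRANTA-519, 235 in JVM-2 and 278 in JVM-13 with DMSO, highest in SP49 and GRANTA-519 and lowest in Maver-1, over an 8.81-fold range. SEMA7A encodes a membrane-anchored semaphorin. It read 109.8 in REC-1, 261 in SP49, 28 in HBL-2, 13 in Maver-1, 20.8 in Z-138, 120.3 in GRANTA-519, 249 in JVM-2 and 189.5 in JVM-13 with DMSO. SP49 and JVM-2 were highest and HBL-2, Z-138 and Maver-1 lowest, and SP49 lay at least 9.6-fold above Maver-1, which like Z-138 was not above background. The other SEMA7A probe set read 0.4 to 6.4 on all arrays.

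**Figure D1:**
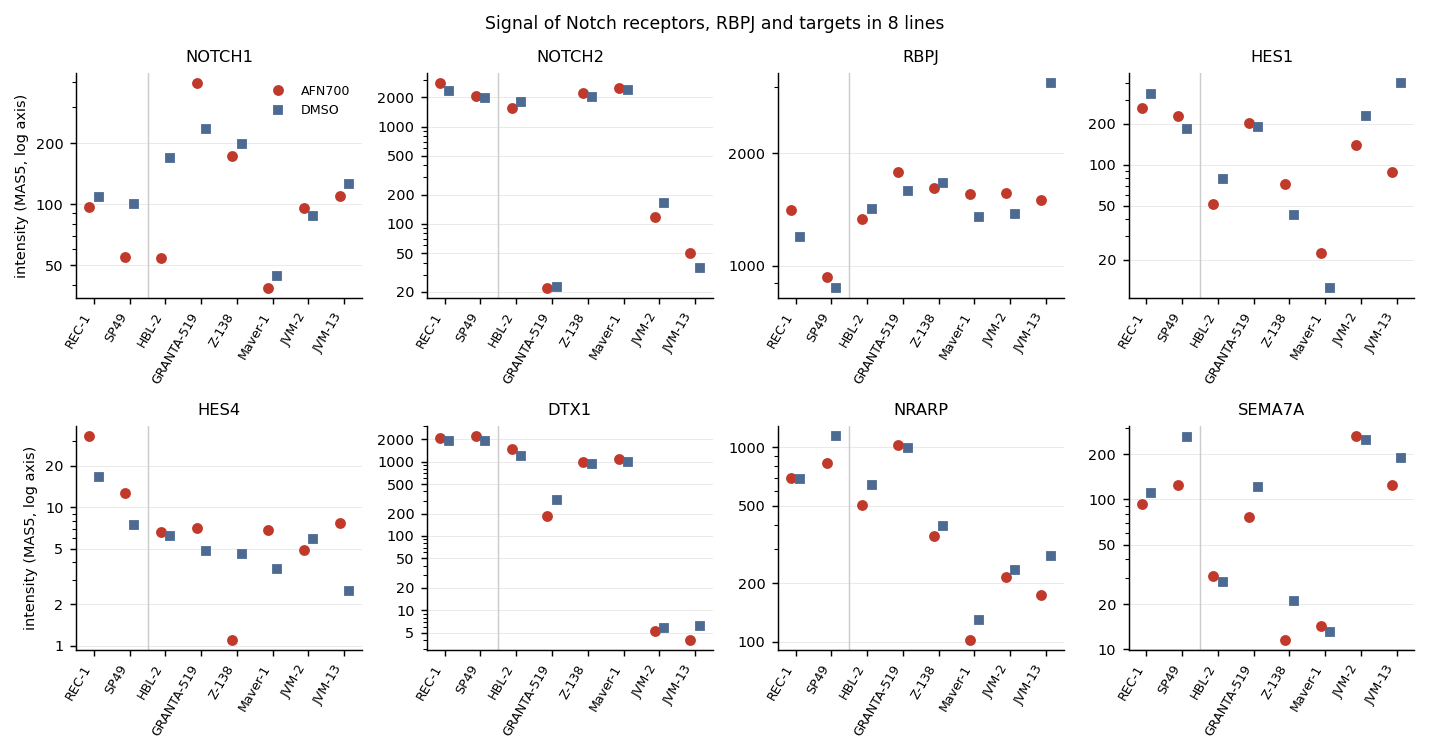
Intensity (MAS5, log axis) of the standing probe set of each gene in each line, with AFN700 as circles and DMSO as squares; a grey line separates REC-1 and SP49, labelled sensitive, from the 6 lines labelled insensitive. NOTCH2 and DTX1 are low in GRANTA-519, JVM-2 and JVM-13 under both treatments, while HES1 and SEMA7A are low in HBL-2, Z-138 and Maver-1.

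**Figure D2:**
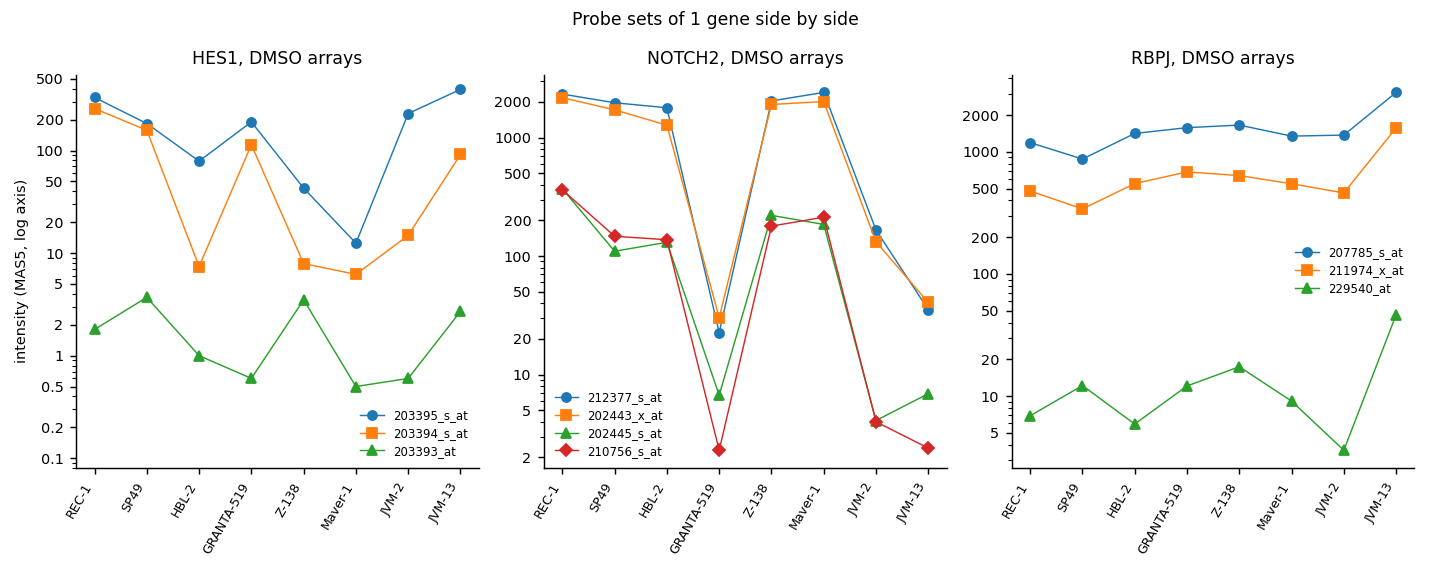
Intensity on the DMSO arrays (MAS5, log axis) of every probe set of HES1, NOTCH2 and RBPJ, with lines joining the points of 1 probe set. The 4 NOTCH2 probe sets follow each other, while 1 HES1 probe set reads under 4 in every line and the other two place JVM-2 differently.

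Lines differed in all 7 tested genes by limma's F-test over the line terms, a test added after the data had been seen. Of all genes tested, 72.4% passed the same test, so the count of members is read against a high background. The Benjamini-Hochberg adjusted p was 4.74e-10 for DTX1, 6.59e-10 for NOTCH2, 9.97e-07 for NRARP, 1.69e-06 for SEMA7A, 0.000454 for HES1, 0.00315 for NOTCH1 and 0.0292 for RBPJ. RBPJ lost the call without SP49, at an adjusted p of 0.265. The spread in this test is that between the AFN700 and DMSO arrays of a line, since no line has a repeat of the same treatment.

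These low and high lines repeated under both treatments, as a description with no test, since the lines were picked after their values were seen. GRANTA-519, JVM-2 and JVM-13 lay below the 5 other lines on both sets of arrays for NOTCH2 and DTX1, 2 of the 7 tested members, against 2.38% of tested genes. HBL-2, Z-138 and Maver-1 lay below the 5 others on both sets for HES1 and SEMA7A, against 1.15% of tested genes. REC-1 and SP49 lay above the 6 others on both sets for DTX1, 1 of 7 members, against 2.49% of tested genes. No line is in both low groups, so REC-1 and SP49 are, by how these were picked, the lines left in neither.

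None of the 7 tested genes passed the threshold for REC-1 against the other lines. DTX1 read 1896 in REC-1 and 755.6 ± 688.4 in the 7 other lines (SD, n = 7) with DMSO, a log2 difference of 2.95 ± 2.86 (SE; limma, Benjamini-Hochberg adjusted p = 0.986). HES1 read 329 in REC-1 and 161.7 ± 131.3 in the others, a log2 difference of 1.59 ± 1.46 with the same adjusted p in limma. On the second HES1 probe set REC-1 was highest of the 8 lines with DMSO, at 256.7, with SP49 next at 157.7. The log2 difference there was 3.01. With AFN700, GRANTA-519 was highest on that probe set at 233.4, and REC-1 read 220.6. NOTCH2 read 2325 in REC-1 and 1201.1 ± 1070.7 in the others, a difference of 2.42 ± 2.50. NOTCH1 read 108 in REC-1, against 136.7 ± 66.5, a difference of -0.16 ± 0.85. For NRARP, SEMA7A and RBPJ the log2 differences were 0.70 ± 1.04, 0.51 ± 1.57 and -0.35 ± 0.50, and no member had an adjusted p under 0.986 in limma. The fit called 29 genes higher (0.236%) and 33 lower (0.268%) in REC-1, and no member was among them. A lone array was assumed to vary like the others, and for NOTCH2, HES1, DTX1 and SEMA7A the size of the difference depends on the pseudocount, since some lines were not above background. On the standing probe sets REC-1 ranked highest for DTX1 among the tested members, and 13.6% of all tested genes were highest in REC-1 on the DMSO arrays. The summed signal of 4 T-cell markers was also highest in REC-1, at 371.9 with AFN700 and 292.9 with DMSO, against medians over the 8 lines of 17.2 and 11.6, and CD3D and CD3E peaked there. CD3G peaked in Z-138, at 106.1, and CD2 was at most 10.9 on any array. Their part in the REC-1 levels was not tested.

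None of the 7 tested genes passed the threshold for AFN700 against DMSO over 8 lines. The limma fit called 0% of the 12305 genes in either direction, while 1006 genes (8.18%) had an unadjusted p under 0.05, and the smallest adjusted p was 0.305. SEMA7A averaged 92.8 ± 83.8 with AFN700 and 124.0 ± 100.8 with DMSO (SD, n = 8 each). Its log2 difference was -0.36 ± 0.18 (SE; limma, adjusted p = 0.627), and it was lower in 5 of 8 lines. NRARP averaged 488.2 ± 337.5 with AFN700 and 563.1 ± 368.5 with DMSO, a difference of -0.25 ± 0.12 at the same adjusted p in limma, and it was lower in 6 of 8 lines. NOTCH1 averaged 127.2 ± 115.4 with AFN700 and 133.1 ± 62.4 with DMSO, a difference of -0.28 ± 0.22 (limma, adjusted p = 0.733). The difference for HES1 was -0.24 ± 0.28, for NOTCH2 0.03 ± 0.12, for RBPJ -0.03 ± 0.13 and for DTX1 -0.03 ± 0.14.

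The treated arrays show where single lines moved. NOTCH1 with AFN700 read 97.3 in REC-1, 55 in SP49, 54.6 in HBL-2, 38.8 in Maver-1, 173 in Z-138, 393 in GRANTA-519, 95.6 in JVM-2 and 110.3 in JVM-13. Its log2 differences by line were -0.15 in REC-1, -0.82 in SP49, -1.57 in HBL-2, -0.18 in Maver-1, -0.19 in Z-138, 0.74 in GRANTA-519, 0.12 in JVM-2 and -0.18 in JVM-13. HBL-2 was 2-fold lower or more and GRANTA-519 higher, and without HBL-2 the mean difference over lines was -0.09. SEMA7A with AFN700 read 93.5 in REC-1, 125 in SP49, 31 in HBL-2, 14.3 in Maver-1, 11.5 in Z-138, 76 in GRANTA-519, 267 in JVM-2 and 124 in JVM-13. Its differences were -0.22 in REC-1, -1.04 in SP49, 0.13 in HBL-2, 0.11 in Maver-1, -0.70 in Z-138, -0.64 in GRANTA-519, 0.10 in JVM-2 and -0.60 in JVM-13, with SP49 lower by more than 2-fold. NRARP differed by 0.02 in REC-1, -0.46 in SP49, -0.34 in HBL-2, -0.34 in Maver-1, -0.17 in Z-138, 0.06 in GRANTA-519, -0.13 in JVM-2 and -0.67 in JVM-13, and no line reached a 2-fold change. HES1 with AFN700 read 259 in REC-1, 229 in SP49, 51.4 in HBL-2, 22.4 in Maver-1, 71.7 in Z-138, 202 in GRANTA-519, 139 in JVM-2 and 88.9 in JVM-13. Its differences were -0.34 in REC-1, 0.31 in SP49, -0.59 in HBL-2, 0.70 in Maver-1, 0.70 in Z-138, 0.09 in GRANTA-519, -0.71 in JVM-2 and -2.11 in JVM-13, lower in 4 lines and higher in the other 4. The second HES1 probe set gave -0.22 in REC-1, -0.38 in SP49, 1.01 in GRANTA-519, 0.76 in JVM-2 and -1.62 in JVM-13. On it, HBL-2, Z-138 and Maver-1 were not above background under either treatment. RBPJ differed by 0.24 in REC-1, 0.10 in SP49, -0.09 in HBL-2, 0.20 in Maver-1, -0.04 in Z-138, 0.18 in GRANTA-519, 0.19 in JVM-2 and -1.03 in JVM-13, and JVM-13 was the line that moved most. The next RBPJ probe set gave -1.40 in JVM-13, -0.93 in HBL-2 and -0.02 to 0.39 in the remaining lines. Without JVM-13 the mean difference was 0.11 for RBPJ (limma, adjusted p = 0.469) and 0.02 for HES1 (adjusted p = 0.97). NOTCH2 differed by 0.26 in REC-1, 0.07 in SP49, -0.21 in HBL-2, 0.05 in Maver-1, 0.13 in Z-138, -0.03 in GRANTA-519, -0.49 in JVM-2 and 0.48 in JVM-13, and DTX1 by 0.13 in REC-1, 0.25 in SP49, 0.30 in HBL-2, 0.14 in Maver-1, 0.09 in Z-138, -0.68 in GRANTA-519, -0.08 in JVM-2 and -0.36 in JVM-13. HES4, which was not tested, differed by 0.29 ± 0.59 (SD, n = 8), between signals that were mostly not above background.

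**Figure D3:**
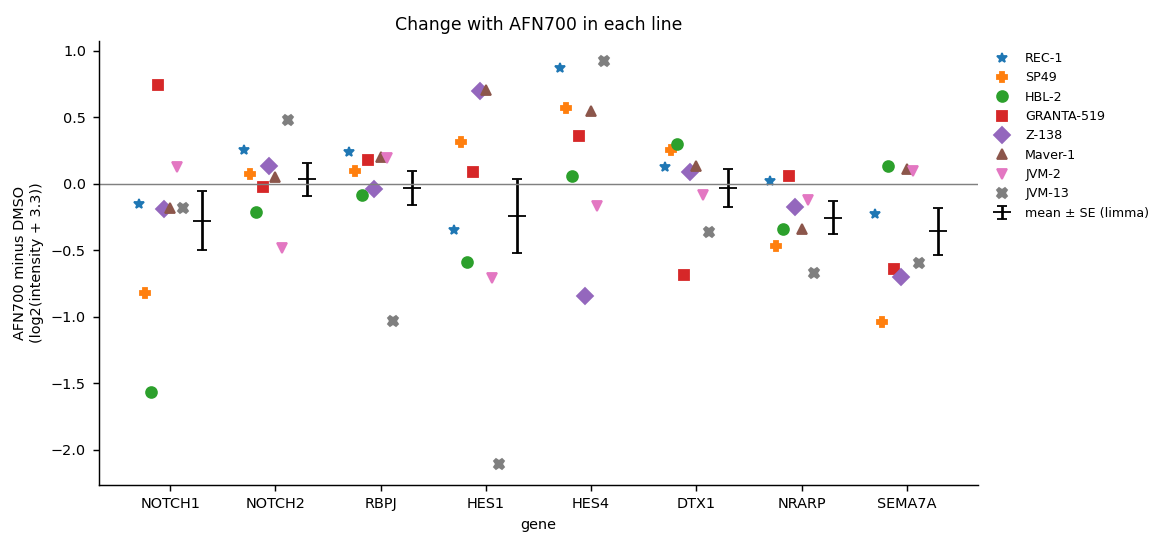
AFN700 minus DMSO log2 difference of the standing probe set of each gene in each line, a point per line, with the limma mean ± SE over 8 lines for the 7 tested genes. Differences of more than 1 downward appear for NOTCH1 in HBL-2, SEMA7A in SP49, and RBPJ and HES1 in JVM-13.

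Of 56 pairs of a tested gene and a line, on the probe sets standing for the genes, 4 (7.14%) fell by 2-fold or more and 0 rose that far. Without JVM-13 and HBL-2, 1 of 42 pairs (2.38%) fell that far and 0 rose, against 2.04% and 1.83% of pairs over all tested genes. With all 8 lines and all tested genes, 2.96% of such pairs fell and 5.82% rose that far. By line, 4.46% of genes fell that far in HBL-2, 7.01% in JVM-13 and 1.32% in SP49, and 32.7% moved 2-fold either way in JVM-13. The JVM-13 DMSO array had a low median over the tested genes, and the actin ratio was higher with AFN700 in HBL-2 and SP49. Their part in these changes was not tested. The mean difference was below 0 in 6 of 7 members, with a median of -0.24, against 37.1% of all tested genes, with a median of 0.06. Without JVM-13 it was below 0 in 4 of 7, with a median of -0.03, against 43.5% of genes.

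The response did not differ detectably between sensitive and insensitive lines. Sensitive lines averaged a log2 difference of -0.63 and insensitive lines -0.27 for SEMA7A, a difference of -0.37 ± 0.42. For NOTCH1 they averaged -0.49 and -0.21, a difference of -0.28 ± 0.53. DTX1 gave 0.19 in sensitive and -0.10 in insensitive lines, a difference of 0.29 ± 0.34, and HES1 gave a difference of 0.30 ± 0.66. The limma fit called 0% of genes, with 182 (1.48%) at an unadjusted p under 0.05, and the adjusted p of every member was 1.0. With 2 sensitive lines the intervals are wide and do not show that the classes respond alike.

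Other genes of the pathway were taken from a list of 65, of which 61 were measured and 56 tested. None was called for AFN700. An unadjusted p under 0.05 was found for 2 (3.57%), against 8.18% of all genes, and 32 (57.1%) had a positive difference, against 62.9% of all genes. The median was 0.04. Those 2, which did not pass the adjusted threshold, were DLL3, of the Delta-like ligand family, at 0.43 ± 0.16 and higher in 8 of 8 lines, and MIB2, a ubiquitin ligase for Notch ligands, at 0.51 ± 0.19 and higher in 7 of 8 lines. Both had an adjusted p of 0.563 in limma with Benjamini-Hochberg adjustment. DLL3 was not above background on either array of GRANTA-519, JVM-2 or JVM-13. Over all tested genes, 2.4% had the same sign in all 8 lines. Of the 8 tested genes known as targets in lymphoid cells, 7 had a negative difference, with a median of -0.16, against 37.1% of all tested genes. Without JVM-13 the difference was negative in 6 of 8, with a median of -0.26, against 43.5%. An unadjusted p under 0.05 in limma was then found for 1 of the 8, and for 1848 of the 12305 tested genes. In the HES and HEY family, HES1 and HES4 aside, 4 of 5 tested genes had a positive difference, against 62.9% of all tested genes. The median in that family was 0.18. MYC, named here for its place among Notch targets after its values were seen, differed by -0.16 ± 0.16 (limma, adjusted p = 0.784).

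NOTCH3 and NOTCH4 also differed between lines, each with its highest level in SP49. NOTCH3 with DMSO read 267 in REC-1, 549.8 in SP49 and 44.2 in GRANTA-519, and at most 3.9 in the 5 other lines. NOTCH4 read 1389 in SP49, and 12.6 to 204.8 in the 7 other lines. Among ligands, JAG1 ranged over 66.8 in Maver-1 to 2008 in JVM-13, and to 1354.5 in REC-1 without JVM-13. LFNG, a glycosyltransferase that modifies Notch, was 2630.5 in SP49 and 22.9 in JVM-2.

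Against the 7 other lines, REC-1 had no pathway gene called, and 3 of 56 had an unadjusted p of 0.05 or less, against 5.66% of all genes. CCR7, a chemokine receptor, read 23.1 in REC-1 and 121 to 1296 in the others, a log2 difference of -3.84 ± 0.97 (limma, adjusted p = 0.272). ADAM10, which makes the first ligand-induced cut, read 1346 in REC-1 and 1831 to 3018 in the others, a difference of -0.81 ± 0.26 (limma, adjusted p = 0.554). IL7R, a cytokine receptor subunit, read 70.6 in REC-1 and 1.1 to 31.7 in the others, a difference of 2.42 ± 1.08 (limma, adjusted p = 0.883). CR2, the complement receptor CD21, read 868.5 in REC-1 and 0.7 to 275.5 in the others, a difference of 4.99 ± 2.28 (limma, adjusted p = 0.913). FCER2, another of the listed lymphoid targets, read 14.6 in REC-1 and 11.4 to 628.5 in the others. Its log2 difference was -2.50 ± 1.89. CCR7 and FCER2 were not above background in REC-1, nor were IL7R and CR2 in several other lines. The sizes of these 4 differences therefore depend on the pseudocount. With AFN700, IL7R read 38 in REC-1 and 73 in JVM-13, while CR2 stayed highest in REC-1 at 355.5. HEY1, a relative of the HES repressors, read 1940.1 in REC-1, 1858 in JVM-13 and 6.8 to 528 in the remaining lines. Between lines, the F-test called 42 of 56 pathway genes (75%), near the 72.4% of all genes.

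**Figure D4:**
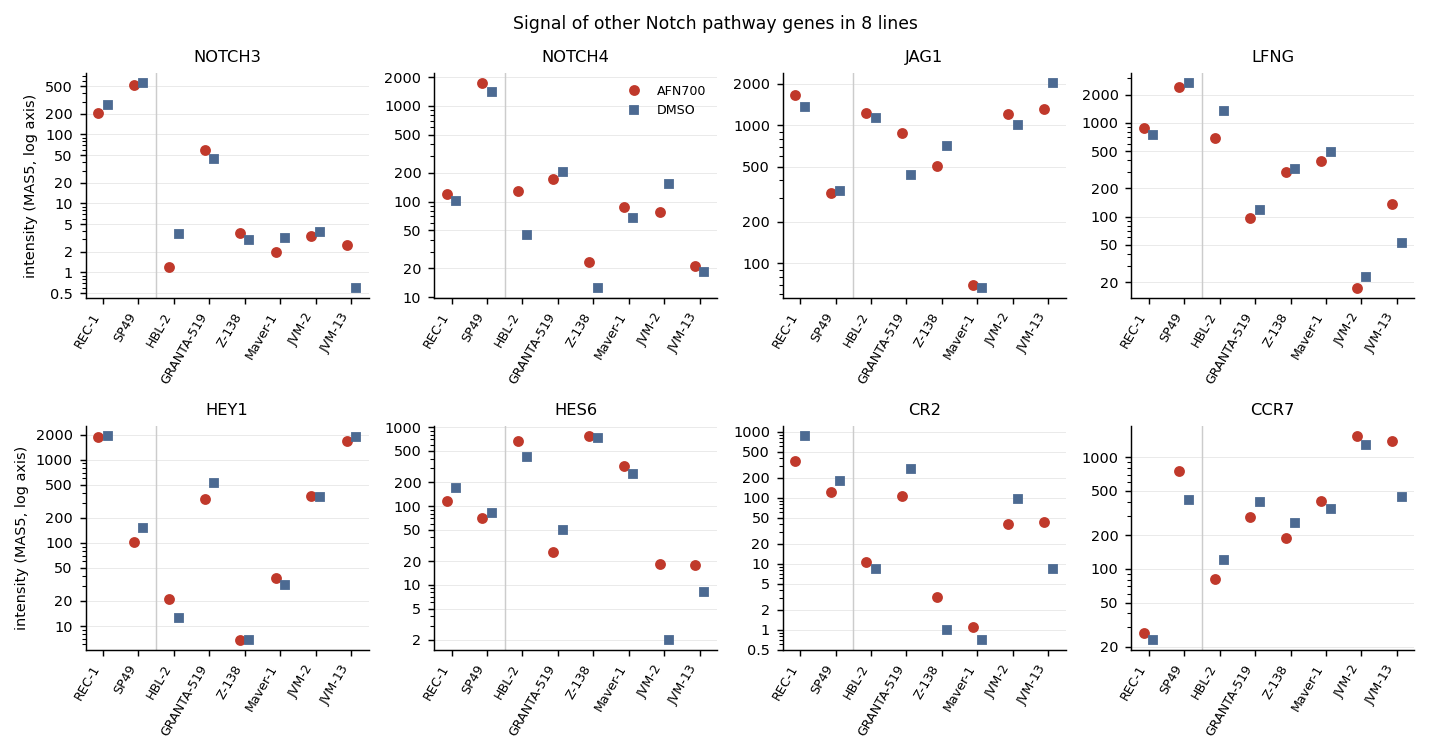
Intensity (MAS5, log axis) of 8 other pathway genes in each line, with AFN700 as circles and DMSO as squares and a grey line after the lines labelled sensitive. NOTCH3 stands out in REC-1, SP49 and GRANTA-519, NOTCH4 in SP49, and CCR7 is lowest in REC-1 under both treatments.

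The genes whose DMSO levels followed each member most closely over 8 arrays were listed as a description. Pearson's r was 0.99 for FOXP1 with DTX1, 0.98 for ARNT with NOTCH2, 0.99 for MAGEE1 with SEMA7A, 0.96 for ZNF462 with HES1 and 0.98 for PPTC7 with RBPJ. For NOTCH1, r with NDUFB6 was 0.94 on the DMSO arrays and 0.39 on the AFN700 arrays. With 12305 genes and 8 points, high values arise for many genes: 164 genes exceeded 0.9 with DTX1 and 6 with NOTCH1.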

How the data were processed

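Expression was measured on 16 arrays, 1 per line and treatment. The authors deposited a linear intensity per probe set, made with MAS5, as named, without a version, in the submitters' processing notes. With 2% trimmed at both ends, every array averages 150, a global scaling. Without detection calls, weak signal and background cannot be separated.

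Of 42892 probe sets in the platform annotation, 41091 had 1 gene and 1801 had several, which were left out. Another 11721 were not listed, and 62 are controls. The log2 scale is log2(deposited intensity + 3.3), where 3.3 is the 25th percentile of all values, so that changes of weakly expressed genes are understated. Testing was limited to genes above the 60th percentile of an array (21.5 to 31.7) on at least 2 arrays.

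Tests used limma 3.58.1 in R 4.3.3 (lmFit and eBayes with a trend), with Benjamini-Hochberg adjustment over 12305 genes and 0.05 as the threshold. The line was a fixed block for AFN700 against DMSO and for sensitive against insensitive lines. By the labels both arrays of a block come from the same line. REC-1 was set against 7 lines on the DMSO arrays. The F-test between lines and the fits without JVM-13 and HBL-2 were added after seeing the data. Members and lists were chosen with earlier results of these data known. Pathway genes were named from those with the largest difference with AFN700 or in REC-1, at most 4 per role, with MYC named besides. The steps were tested on simulated data. The changes put into changed genes there were larger than any mean AFN700 difference of a member. The run therefore does not show how the fits perform for changes as small as those of the members. For REC-1 the simulated spread between lines was capped, below that seen for most tested members. That run does not show how the fit performs for them. Figures were drawn with matplotlib 3.10.9.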

Additional observations from a re-analysis of the deposited data

Results flagged for a closer look

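Of 24 sets of 8 lines examined, 2 held a line far from the others by Dixon's test, with a critical value of 0.526, and chance gives about 1 in 20. RBPJ was lowest in SP49 on the AFN700 arrays, with a log2 level of 9.87 and a gap to the next line of 0.547 of the whole range. The AFN700 minus DMSO log2 difference of RBPJ was lowest in JVM-13, at -1.03, with a gap of 0.741 of the range. The DMSO array of that line had the lowest median level of the 16 arrays over the tested genes, and its part in the RBPJ difference was not tested.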

How the results depend on the processing

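No member passed the threshold for AFN700, for sensitive against insensitive lines or for REC-1 in any alternative run. Over those alternatives the lowest adjusted p in limma was 0.258, 0.894 and 0.862. For AFN700, 115 of 125 values kept their direction. NOTCH2 turned to -0.0733 with quantile normalization and -0.0647 with centred arrays, and DTX1 to 0.0082 with a pseudocount of 16. Leaving out each line in turn gave -0.075 to 0.0649 for DTX1, -0.0301 to 0.11 for NOTCH2, -0.0703 to 0.11 for RBPJ and -0.38 to 0.0227 for HES1. Without JVM-13 and HBL-2, RBPJ was 0.14 and HES1 0.12. For sensitive against insensitive lines, HES1 turned to -0.11 with the probe set of highest variance and to -0.21 without JVM-13 and HBL-2, where NRARP was -0.0794. Leaving out lines gave -0.20 to 0.28 for NRARP, -0.62 to 0.0591 for NOTCH1, -0.0536 to 0.63 for HES1 and -0.77 to 0.0421 for SEMA7A. The cause was not tested. All 7 members were below 0 for AFN700 with quantile normalization or centring, where 49.8% and 57.6% of all genes were below 0. Relative to the fit reported, centring moved the median of all genes to 0.09 from -0.03 for sensitive against insensitive lines and to -0.08 from 0.04 for REC-1. Genes called for AFN700 numbered 0 to 10 on leaving out lines (10 when JVM-13 was the line left out) and 37 with both JVM-13 and HBL-2 left out. Genes called for REC-1, 62 in the fit reported, numbered 37 with a pseudocount of 1 (5 higher, 32 lower), 94 with no filter (62 higher, 32 lower), 32 with a stricter filter (0 higher, 32 lower), 35 to 68 on leaving out lines (35 without Z-138, 36 without Maver-1, 40 without HBL-2) and 40 without JVM-13 and HBL-2. Without the line as replicate block, AFN700 called 0 genes, with 57 at an unadjusted p under 0.05 against 1006 with it. RBPJ's difference between lines had an adjusted p of 0.0521 with centred arrays and 0.0846 without a trend. One array per line and treatment limits precision throughout.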
